A study of Mus musculus with 6 samples.

Results

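Circular RNAs (circRNAs) from genes of ubiquitin ligases, their cofactors and deubiquitinases were followed in mouse hippocampus. Host genes were chosen by symbol: genes named Usp, Trim, Fbxo, Fbxw, Fbxl, Ube, Ubr, Herc, Cul or Rnf with a number, other than Trim37 and Trim33. A circRNA was included when its only listed host identifier was such a gene. This gave 260 of the 10652 circRNAs in the table (2.44%), from 96 of the 3675 hosts of circRNAs with 1 host identifier.

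Libraries were made from hippocampi of male adult mice of the C57BL/6J strain, bought at 8 to 10 weeks of age, and the labels name no genetic change in either group. The 3 Control libraries came from mice without the stress schedule. The 3 CUS libraries came from mice under chronic unpredictable stress for 4 weeks, with randomly scheduled mild stressors such as restraint for 6 h, swimming at 8 °C and a tilted cage for 3 h. Whether each independent sample was 1 mouse is not stated, so a p-value covers only the spread between these samples. The comparison asks which circRNAs differ with stress. RNA was selected for poly(A) in 2 rounds, which rings lack, so recovery of circRNAs may be low and uneven.

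Ubiquitin is attached to proteins by a chain of enzymes: an E1 activates it, an E2 carries it, and an E3 ligase selects the substrate. HECT ligases, to which the HERC proteins belong, take ubiquitin onto themselves before passing it on, while RING ligases bring the E2 to the substrate. Cullins are scaffolds of modular RING ligases, in which F-box proteins choose the substrate on the cullin 1 scaffold. Deubiquitinases such as the Usp enzymes remove or trim ubiquitin. In neurons this system is known for the turnover of synaptic proteins, and loss of maternal Ube3a causes Angelman syndrome. A circRNA is made by back-splicing of a gene's transcript, so its level need not follow the level of the mRNA or the protein.

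Values are levels, taken as 10 to the deposited value, with a deposited 0 kept at 0. The header names no unit. Levels in each library were whole multiples of 1 library-specific step (within 0.05 of a step, for 100% of values under 300 steps), and the lowest level was 17 steps in every library. Depth in reads is therefore unknown, a 0 does not show that a circRNA is absent, and no counting interval is given. The inverse of the step, a relative scale, was 90.8% to 100% of the highest in Control and 81.9% to 89.8% in CUS, so the groups did not overlap in it. The number of circRNAs above 0 did not overlap either, at 4329 to 4606 in Control and 3991 to 4273 in CUS. Marker genes were looked up by host. Of 15 hippocampal neuron genes 10 had a circRNA, with summed levels of 19096 to 25886 in Control and 19665 to 29262 in CUS, while Calb1, Wfs1, Man1a, Fibcd1 and Neurod6 had none. Astrocyte genes (4 of 11 with a circRNA, none for Gfap or Aqp4) summed to 1085 to 1525 in Control and 1709.7 to 2642 in CUS, without overlap. Oligodendrocyte genes (6 of 11, none for Mog) summed to 1374 to 2107 and 2039 to 3726. Interneuron genes (4 of 11, none for Gad1, Gad2, Sst, Pvalb or Vip) summed to 2219 to 4428 and 1737 to 6232. None of 8 microglial genes and 1 of 9 vascular and choroid genes had a circRNA, and that last sum was 0 to 176 in Control and 0 to 233 in CUS. The part of relative scale and cell makeup in the results below was not tested, and in such bulk samples fewer cells of a type and less RNA per cell cannot be told apart.

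Most of these circRNAs were seen in few libraries. Of the 260, 85 (32.7%) were above 0 in 1 library, against 36.9% of all 10652, and 20 (7.69%) were above 0 in all 6, against 7.55%. Those 20 carried 43.7% of the summed level. By library, 108, 109 and 104 of the 260 were above 0 in Control and 111, 109 and 104 in CUS, so the groups overlapped in this count. Of the 260, 256 were exonic and 4 intronic: 3 of the intronic ones came from Cul5 and 1 from Rnf10, and each was above 0 in a single Control library. Of the 96 hosts, 44 had 1 circRNA. In the other 52 the leading circRNA held a median of 54.7% of the host's mean level, from 14.8% to 96.8%. Longer genes tended to have more circRNAs, with a Spearman rho of 0.54 across the 96 hosts and 0.44 across 3667 hosts with a known length. Genes are not independent replicates and this is a description. Fbxl17 was the longest member gene at 443 kb, and it had 1 circRNA.

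By family, Usp genes gave 75 circRNAs from 24 hosts, Rnf genes 50 from 29, Herc genes 40 from 4, Ubr genes 27 from 5, Ube genes 24 from 12, Fbxo and Cul genes 15 each from 8 and 4, Trim genes 7 from 4, Fbxw genes 4 from 3 and Fbxl genes 3 from 3. Summed over all members the level was 49202, 52435 and 57806 in the Control libraries versus 57328, 55717 and 50184 under CUS, between 2.43% and 2.86% of each library's total, and the groups overlapped. Usp circRNAs together were at 11523, 11593 and 10147 in the Control libraries versus 13732, 15933 and 8818 under CUS. Their 3 CUS libraries lay both above and below Control. Herc circRNAs were at 5279.9, 7927 and 12240.4 in the Control libraries versus 10710.02, 10188 and 8407 under CUS, the 3 Control libraries spanning the CUS range.

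Circular products of F-box hosts, the substrate adaptors, stood lower in CUS when summed over the 22 circRNAs of 14 hosts, at 7723, 6643 and 8279.96 in the Control libraries versus 4363, 5844 and 5967 under CUS. Every CUS library lay below every Control library. Over the whole table this held for 5.53% of single hosts above 0 in at least 3 libraries. No p is given for the F-box sum, because the hosts were grouped with earlier results of these data known. It also depended on which rows were counted: with circRNAs of several host identifiers given to their only protein-coding host (chosen after seeing the data), 3 more circRNAs, of Fbxw7 and Fbxl4, entered the sum, which became 8793, 7269 and 10057 in the Control libraries versus 5696, 9287 and 6586 under CUS, and the groups overlapped.

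**Figure D1:**
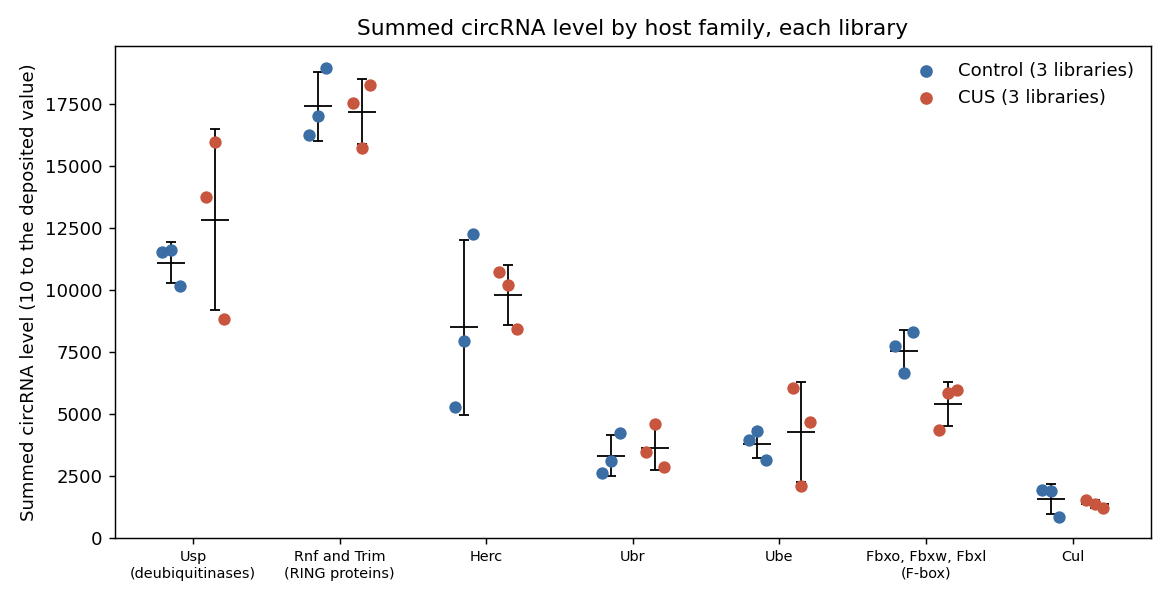
Summed circRNA level (vertical axis, 10 to the deposited value) for 7 groups of host genes, with 1 point per library (blue Control, red CUS) and a black bar with the mean and SD of 3 libraries. The F-box hosts are the group whose 3 CUS libraries (4363 to 5967) all lie below its 3 Control libraries (6643 to 8280.0), and the other 6 groups overlap. The F-box libraries overlap too (7269 to 10057 in Control, 5696 to 9287 in CUS) once circRNAs of several host identifiers are assigned, which is not drawn.

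Across all hosts, 2151 were above 0 in at least 3 of 6 libraries and were tested with limma, 67 of them members; the other 29 member hosts were too sparse. Differences below are on log2(level + 45.5), CUS minus Control, which understates low hosts. With Benjamini-Hochberg adjustment over all 2151, 0 of 67 member hosts passed 0.05 (background 0%), and the lowest adjusted p among them was 0.708. An unadjusted p under 0.05 was found for 3, or 4.48%, against a background of 5.86% (126 of 2151), so the members were near the background. Of those 3, Ube2w and Rnf19a were at 0 in every library of 1 group and passed the filter only through the other group, so their values had to differ. Fitted values were higher in 35 of the 67 and lower in 32 (48.1% of all tested hosts were higher). Their median log2 difference was 0.14, against -0.050 for all tested hosts. It lay between -0.10 and 0.056 when any 1 library was left out, with the filter still applied over all 6.

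**Figure D2:**
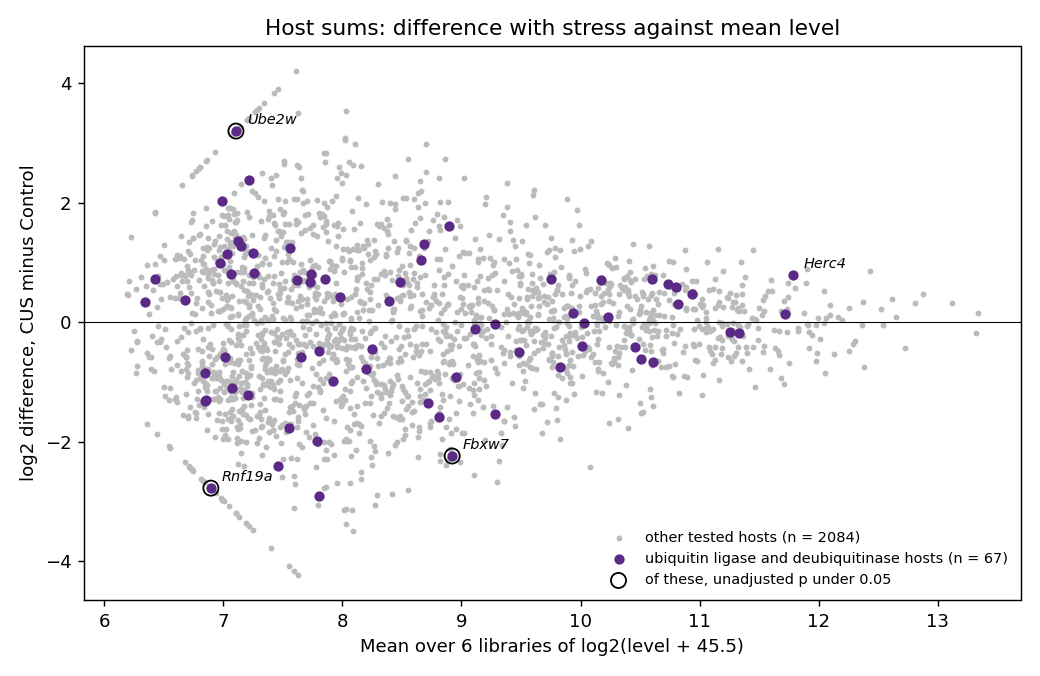
Difference in host sum, CUS minus Control on the log2 scale (vertical axis), against the mean over 6 libraries of log2(level + 45.5) (horizontal axis), for 67 ubiquitin ligase and deubiquitinase hosts (purple) and 2084 other tested hosts (grey). Ube2w, Rnf19a and Fbxw7 (circled) have an unadjusted p under 0.05, and the members lie within the cloud of other hosts; the diagonal edges are hosts at 0 in 1 group.

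HERC genes, which encode HECT ligases with RCC1-like repeats, had more circRNAs per host than any other of the 10 families, 40 over 4 hosts. Herc4 (chromosome 10, 63243810 to 63317878, GRCm38, as are all gene positions here; the circRNAs' own positions were not used) had the highest host sum of the 96, at 1339.9, 2814 and 4782 in the Control libraries versus 4908, 4457 and 4408 under CUS. The 3 CUS libraries lay close together near the top Control library, and the groups overlapped because of Control replicate 3. The means were 2979 ± 1727 for Control and 4591 ± 276 for CUS (SD, n = 3 per group), and the log2 difference was 0.79 with SE 0.41 (limma adjusted p = 0.917). It was 0.32 without Control replicate 1 and 1.22 without Control replicate 3.

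One circRNA, mmu_circRNA001095, made up 78.5% of the Herc4 sum and was at 1007, 2619 and 3583 in the Control libraries versus 3511, 2961 and 4142 under CUS. Another, mmu_circRNA001097, was low in Control, at 130.4, 45.4 and 144, and at 0 in every CUS library. Limma's adjusted p was 0.577. Of the 12 Herc4 circRNAs, 7 were above 0 only in CUS libraries and 2 only in Control, 5 of the 12 in a single library. Over all 260 member circRNAs 23.8% were above 0 only in CUS and 23.5% only in Control, against 23.4% and 27.0% of all 10652, and no test was made of the Herc4 count.

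Herc3 (chromosome 6, 58831465 to 58920398), one of the small HERC genes, had 8 circRNAs and a host sum that overlapped, at 859.5, 436 and 1652 in the Control libraries versus 1038, 2396 and 1163 under CUS. mmu_circRNA008810 had no level above 0 in Control and reached 295, 707 and 538 in CUS. mmu_circRNA008812 was likewise 0 in Control, against 318, 532 and 266 under CUS. Limma's adjusted p was 0.577 for both, and no fold is given against a group at 0. Fitted values were below 0 for 3 of its 6 tested circRNAs, among them mmu_circRNA008815, which was at 222, 113 and 577 in the Control libraries versus 0, 196 and 0 under CUS, and mmu_circRNA008809, which was at 0, 323 and 428 in the Control libraries versus 0, 0 and 73.4 under CUS (limma adjusted p = 0.872 for both). Across 24 member hosts with at least 2 tested circRNAs, 13 (54.2%) had fitted values in both directions, against 63.1% of 731 hosts over the whole table.

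**Figure D3:**
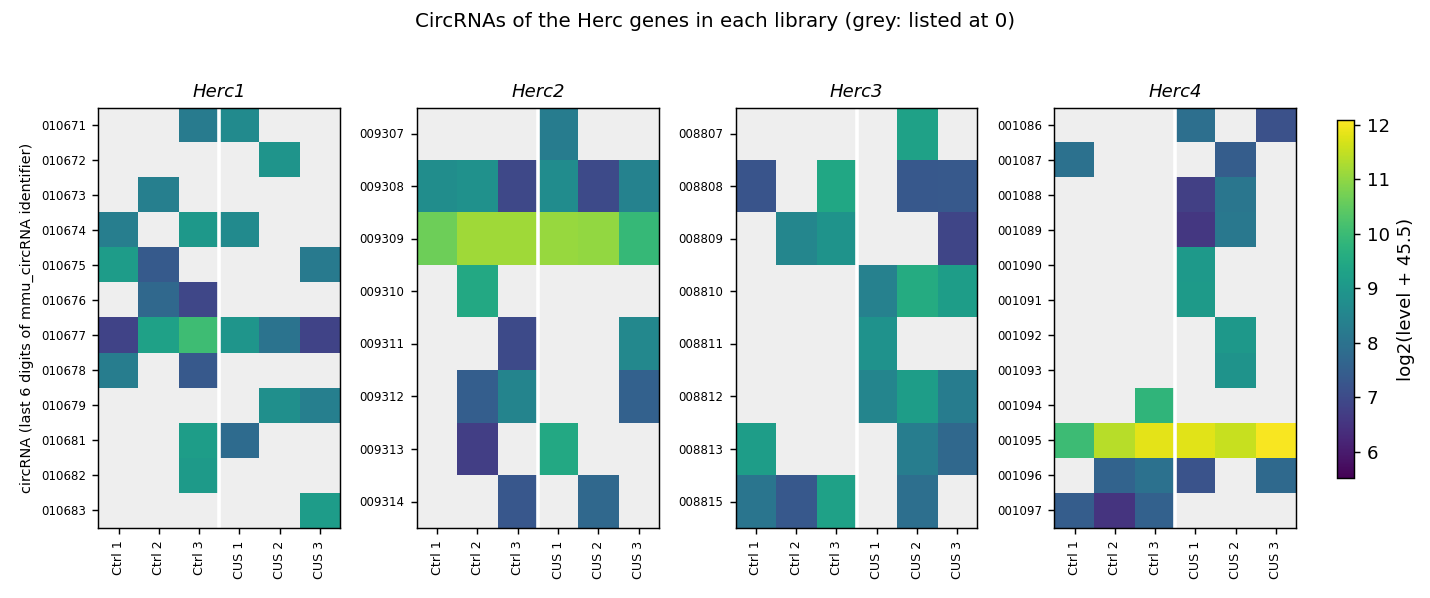
Levels of the 40 circRNAs of Herc1, Herc2, Herc3 and Herc4 (rows) in the 3 Control and 3 CUS libraries (columns), coloured by log2(level + 45.5), with grey where a circRNA is listed at 0. Herc2 and Herc4 are each led by 1 circRNA seen in all 6 libraries, while 2 Herc3 circRNAs are filled in all 3 CUS libraries and grey in all 3 Control libraries.

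Herc2 (chromosome 7, 56050196 to 56231800), whose giant product acts in the DNA damage response and binds Ube3a, was at 1946, 3529.9 and 2822 in the Control libraries versus 3417, 2283 and 1704 under CUS. Its circRNA mmu_circRNA009309 held 70.8% of the mean sum and was at 1567, 2246 and 2239.8 in the Control libraries versus 2105, 2033 and 922 under CUS. Groups overlapped for both. Herc1 (chromosome 9, 66350450 to 66508775), whose mutation causes Purkinje cell loss in tambaleante mice, was at 1135, 1147 and 2984 in the Control libraries versus 1347, 1052 and 1131 under CUS. Control replicate 3 stood above the other 5 libraries. Its leading circRNA held only 27.2% of the sum, so the Herc1 level was spread over its 12 circRNAs.

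UBR-box ligases recognise degradation signals at protein N termini, among them Ubr1 and Ubr2. Ubr3 (chromosome 2, 69897246 to 70024013) had the most circRNAs of any member host, 13, and was at 1717, 1288 and 1920.4 in the Control libraries versus 2028, 2496 and 2281 under CUS. All 3 CUS libraries lay above all 3 Control libraries. The means were 1642 ± 323 for Control and 2268 ± 234 for CUS (SD, n = 3 per group), and the log2 difference was 0.47 with SE 0.48 (limma adjusted p = 0.917), or 0.31 without Control replicate 2. Its leading circRNA mmu_circRNA006046, part of that sum at 39.3%, was at 816, 363 and 537 in the Control libraries versus 943, 858 and 1087 under CUS. These did not overlap. The other 3 tested Ubr3 circRNAs had lower fitted values in CUS. Ubr1 was at 0, 653 and 596 in the Control libraries versus 475, 1778 and 568 under CUS, and the groups overlapped.

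Ubr2 (chromosome 17, 46928295 to 47010556) went the other way, at 499.7, 219 and 1532 in the Control libraries versus 0, 218 and 0 under CUS. Its 3 CUS libraries lay below the 3 Control libraries, by a narrow margin between CUS replicate 2 and Control replicate 2. The log2 difference was -2.90 with SE 1.50 (limma adjusted p = 0.917).

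Over the whole table, all 3 CUS libraries lay above all 3 Control libraries for 5.86% of the tested hosts and below for 5.53%. Among the 67 tested members this held for 3 (4.48%), namely Ubr3, Ube2w and Rnf114, and for 4 (5.97%), among them Ubr2, Rnf2 and Rnf19a. Both shares were near the background.

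Among RING genes, Rnf2 (chromosome 1, 151458004 to 151500955), which encodes a catalytic subunit of Polycomb repressive complex 1 that ubiquitinates histone H2A, was at 1301, 1064 and 745 in the Control libraries versus 513, 221 and 283 under CUS. The groups did not overlap. The means were 1037 ± 279 for Control and 339 ± 154 for CUS (SD, n = 3 per group), and the log2 difference was -1.53 with SE 0.87 (limma adjusted p = 0.917). Of its 2 circRNAs the leading one, mmu_circRNA000570, was at 1301, 1064 and 144 in the Control libraries versus 271, 221 and 283 under CUS and did overlap, through Control replicate 3.

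Rnf19a (chromosome 15, 36239933 to 36283147), a RING-between-RING ligase gene also called dorfin, stood at 0 in every CUS library and at 74.9, 320.2 and 644 in the Control ones (limma adjusted p = 0.708), and it was tested only because all 3 Control libraries were above 0. Rnf114, a RING ligase gene, was at 86.9, 0 and 0 in the Control libraries versus 309.5, 145 and 533 under CUS. Its CUS libraries all lay above Control (adjusted p = 0.917). In Rnf13, a membrane-anchored RING ligase gene, mmu_circRNA006679 was 0 in Control, against 298, 296 and 644 under CUS (limma adjusted p = 0.577). The other 3 tested Rnf13 circRNAs had lower fitted values in CUS, and the Rnf13 sum overlapped at 905, 356 and 2040.02 in the Control libraries versus 637, 1175 and 1280.2 under CUS.

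The RING and TRIM hosts of highest level showed no separation. Rnf169 (chromosome 7, 99920254 to 99980448), whose product binds ubiquitinated chromatin at DNA breaks, was at 2453, 4231 and 3046 in the Control libraries versus 4885, 3857 and 2234 under CUS. Trim24 (chromosome 6, 37870811 to 37966296), a chromatin reader and nuclear receptor cofactor gene, was at 2317, 2471 and 2894 in the Control libraries versus 6002, 1019 and 1876 under CUS. CUS replicate 1 was the highest and CUS replicate 2 the lowest of the 6 Trim24 values. Rnf138, a DNA repair ligase gene, was at 1883, 877 and 2349 in the Control libraries versus 929, 2579 and 3099 under CUS. Trim2, a neuronal ligase gene known for neurofilament turnover, was at 492, 2032 and 2218 in the Control libraries versus 1498, 1947 and 3107 under CUS. Control replicate 1 was far below the other 5 libraries for Trim2. The limma adjusted p-values of these 4 hosts were 0.96, 0.96, 0.923 and 0.917.

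Among deubiquitinase hosts, Usp3, whose product acts on histone H2A, was at 239, 2642 and 2234 in the Control libraries versus 2305, 1829 and 1745 under CUS. Control replicate 1 was far below the other 5 libraries, and the groups overlapped. Usp15 (chromosome 10, 123105006 to 123196995), a deubiquitinase gene of TGF-beta signalling, was at 1263, 1810.3 and 1221 in the Control libraries versus 2562, 2619.7 and 1468 under CUS. The sum overlapped, but its leading circRNA mmu_circRNA001370 was at 715, 1238 and 817 in the Control libraries versus 2219.7, 1926 and 1261 under CUS, with every CUS library above every Control library by a narrow margin. That circRNA had means of 923 ± 277 for Control and 1802 ± 491 for CUS (SD, n = 3 per group), a log2 difference of 0.93 and SE 0.60 (limma adjusted p = 0.872).

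Usp9x, an X-linked deubiquitinase gene needed in brain development, was at 2267, 2098 and 1484 in the Control libraries versus 2075, 1557 and 514 under CUS. CUS replicate 3 was the lowest of the 6. The circRNAs mmu_circRNA011048 and mmu_circRNA011045 of Usp9x stayed within 6 steps of each other in all libraries, so they may share reads; the first was at 0, 323 and 242 in the Control libraries versus 534, 347 and 0 under CUS. Usp53, from a gene whose product sits at tight junctions, was at 0, 0 and 74.5 in the Control libraries versus 1144, 0 and 264 under CUS, where CUS replicate 2 was at 0 like 2 Control libraries. A circRNA of Usp25, mmu_circRNA004382, was at 451, 189 and 279 in the Control libraries versus 0, 169 and 0 under CUS, with CUS below Control and limma adjusted p = 0.872. Of the 24 Usp hosts 16 were tested, 9 with a higher (56.2%, background 48.1%) and 7 with a lower fitted value. An unadjusted p under 0.05 was found for 0 of them (background 5.86%). The Usp6nl gene falls under the symbol rule although its product is a GTPase-activating protein. It was above 0 in 2 libraries and was not tested.

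Ube genes encode E2 enzymes and some HECT ligases. Ube2w (chromosome 1, 16540790 to 16619489), an E2 that modifies protein N termini, had 1 circRNA, mmu_circRNA000056, which was 0 in Control and 1026, 191 and 242 under CUS. Limma's adjusted p for the host was 0.708, and the host was tested only because all 3 CUS libraries were above 0. Ube2e3, another E2 gene, was at 901, 910.1 and 471 in the Control libraries versus 569, 0 and 576 under CUS, and the groups overlapped. The host with the highest Ube sum, Ube2cbp, a gene for an E2-binding protein, was at 222, 1326 and 777 in the Control libraries versus 1483, 646 and 1239 under CUS.

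Ube3c, a HECT ligase that works at the proteasome, had 2 tested circRNAs. Of these mmu_circRNA007934 was 427, 111 and 545 in the Control libraries and 0 in every CUS library (limma adjusted p = 0.577), and the host sum was at 427, 497 and 713 in the Control libraries versus 507, 489.6 and 465 under CUS. Ube3a, the imprinted Angelman syndrome gene, had 3 circRNAs and was at 2042, 0 and 0 in the Control libraries versus 628, 0 and 0 under CUS. With 4 libraries at 0 it was not tested.

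F-box and cullin hosts were next. Fbxw7 (chromosome 3, 84815268 to 84979198), whose product marks Notch, Myc and cyclin E for degradation, had 1 circRNA with a single host identifier, mmu_circRNA006761, at 857, 638 and 1854 in the Control libraries versus 669, 0 and 296 under CUS. CUS replicate 1 lay above Control replicate 2, so the groups overlapped. The host's log2 difference was -2.24 with SE 1.08 (limma adjusted p = 0.798). It was -1.09 without CUS replicate 2, and -3.08 to -1.09 over the 6 fits that left out 1 library. A second Fbxw7 circRNA that lists another identifier, mmu_circRNA006760, was at 1069.5, 0 and 1229 in the Control libraries versus 761, 710.1 and 321 under CUS, and with it the log2 difference was -0.84.

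Fbxl17 (chromosome 17, 63057452 to 63500017), an adaptor gene for quality control of BTB proteins, was at 1615, 1707 and 1971 in the Control libraries versus 607, 2111 and 1106 under CUS. The Control libraries lay close together and the CUS libraries on both sides of them. Fbxo11, an F-box gene, was at 681, 1331 and 1619.6 in the Control libraries versus 501, 1014 and 1229 under CUS and overlapped. The cullin with the highest sum, Cul5, scaffold of ligases with SOCS-box adaptors, was at 717, 1240.4 and 0 in the Control libraries versus 124, 105 and 647 under CUS. All 4 Cul hosts were tested, 2 higher and 2 lower, with 0 at an unadjusted p under 0.05 (background 5.86%). Among 11 tested F-box hosts the fitted value was higher in 4 (36.4%, background 48.1%) and lower in 7. Fbxw7 was the 1 (9.09%, background 5.86%) with an unadjusted p under 0.05.

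**Figure D4:**
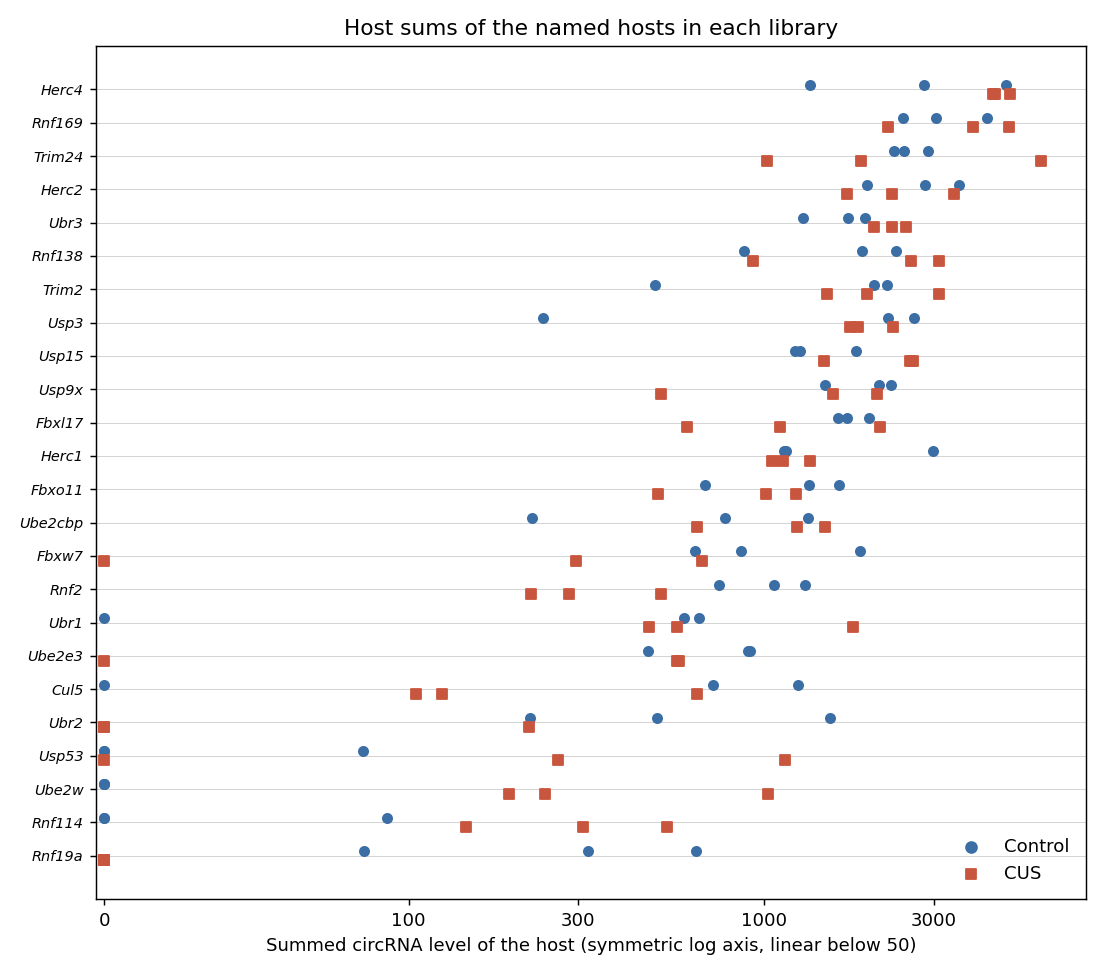
Summed circRNA level in each library (horizontal axis, symmetric log scale, linear below 50) for 24 hosts named by rule, ordered by mean, with Control as blue circles and CUS as red squares. Most of the upper hosts overlap between groups, Ubr3 being an exception, and the hosts at 0 in all libraries of 1 group (Ube2w in Control, Rnf19a in CUS) lie in the lower part.

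Single circRNAs were tested in the same way. Members made up 106 of the 3896 circRNAs tested, and the other 154 member circRNAs were too sparse. With limma, 0 of the 106 passed an adjusted p of 0.05 (background 0%), and 7 (6.60%) had an unadjusted p under 0.05, against a background of 6.01%. The direction was higher in 4 (background 2.75%) and lower in 3 (background 3.26%). Those 4 were the 2 Herc3 circRNAs with those of Rnf13 and Ube2w, all listed at 0 in every Control library. Those lower were the circRNAs of Ube3c and Herc4, listed at 0 in every CUS library, and of Fbxw7. A circRNA at 0 throughout 1 group passes the filter only where all 3 libraries of the other are above 0, so it had to differ: 6 of the 106 tested members (5.66%, against 4.29% of all tested circRNAs) were of this kind, and all 6 were among these 7. Over the whole table, 167 of the 234 circRNAs at an unadjusted p under 0.05 were too. All CUS libraries lay above all Control libraries for 8 tested member circRNAs (7.55%, background 5.78%) and below for 4 (3.77%, background 5.08%). Among the 20 above 0 in all 6 libraries, those of Usp15 and Ubr3 were separate in this way and 0 had an unadjusted p under 0.05. The share of separate circRNAs among all 804 above 0 in all 6 libraries was not computed. These 2 therefore have no background beside them. The median log2 difference of the 106 was -0.12, and that of all 3896 was -0.12.

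Other hosts of the ubiquitin system outside the symbol rule were counted from lists of E1, ubiquitin and other cascade genes, HECT and RBR ligases, RING and U-box genes, cullin adaptors and regulators, deubiquitinases with the Senp proteases of SUMO, and the proteasome with its shuttle factors. Of 112 with a circRNA 73 were tested. Fitted values were higher in 26 (35.6%, against 48.1% of all tested hosts) and lower in 47. The median log2 difference was -0.74, against -0.050 for all tested hosts. The lists were chosen with earlier results of these data known, so no test was made of this shift. An unadjusted limma p under 0.05 was found for 1 higher host (background 2.56%) and 4 lower ones (background 3.3%). Together these were 6.85% of the 73, near the background of 5.86%. With limma's adjusted p 0 passed (background 0%). In the first list Birc6, a hybrid E2 and E3 gene, had a higher fitted value and Uba6, an E1 gene, and Ubb lower ones. Birc6 was at 0, 840 and 2014 in the Control libraries versus 814, 546 and 758 under CUS. Its mean level was thus lower in CUS, at 706 against 951, despite the higher fitted value. The higher and lower fitted values numbered 6 and 8 for HECT and RBR ligases, 9 and 15 for RING and U-box genes, 4 and 14 for cullin adaptors and regulators, and 2 and 4 for the proteasome list. They were 4 and 4 for the deubiquitinase list, or 2 and 3 without the Senp genes. All CUS libraries lay above all Control libraries for 3 of the 73 hosts (4.11%, background 5.86%) and below for 6 (8.22%, background 5.53%).

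Asb3, an adaptor gene for cullin 5, was at 2209, 2763 and 2551 in the Control libraries versus 1106, 2127 and 307 under CUS. CUS lay below Control in all 3 libraries (limma adjusted p = 0.708). Ubb, a polyubiquitin gene, was 261, 343 and 314 in the Control libraries and 0 in every CUS library (limma adjusted p = 0.708), so it was tested only through Control. Its coding sequence is a tandem repeat, so its assignment is uncertain. Cdc23, a subunit gene of the anaphase-promoting complex, was at 169, 1220.3 and 915 in the Control libraries versus 0, 0 and 174 under CUS, and Ankib1, an RBR ligase gene, at 1545, 1129.5 and 944 in the Control libraries versus 969.8, 156 and 144 under CUS. These were the 4 lower hosts. The 1 higher host was Cyld, a deubiquitinase gene, at 753, 424 and 90.4 in the Control libraries versus 1194, 2869.7 and 1133 under CUS.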

How the data were processed

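The authors deposited 1 table of circRNAs with log10 values for 6 libraries, as their own processing left them; 10 to the value gives levels scaled per library. The submitters' processing notes name mm9, StringTie, DESeq and edgeR and assign them no role. Which program called the circRNAs is not stated in these sources. Host symbols and positions were taken from GENCODE vM21 (GRCm38), which held 3667 of the 3675 hosts. Levels were summed by host over circRNAs with 1 identifier. The 786 circRNAs with several identifiers and the 658 with none were left out of host sums.

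The test was limma 3.58.1 (R 4.3.3), with eBayes and a variance trend, on log2(level + 45.5); 45.5 is the median of the 6 libraries' lowest levels above 0. Circular RNAs or hosts above 0 in at least 3 of 6 libraries were tested, p-values were adjusted by Benjamini-Hochberg over all tested, and the fit was tested on simulated data. Hosts were named by level, p in each direction, number of circRNAs and absence from 1 group. A host that the rule names is not reported here. Mentions beyond that rule (the host sums of Herc3, Rnf13, Ube3a, Ube3c and Usp6nl, a circRNA of Rnf2, the lower circRNAs of Herc3, hosts of the pathway lists and circRNAs with several identifiers) were chosen after their values were seen. Members and lists were chosen with earlier results of these data known. Replicate numbers were not taken to pair the samples. Python 3.11.15, numpy 2.4.6, pandas 2.3.3 and matplotlib 3.10.9 made tables and figures. No circRNA sequence is shown, since back-splice positions were not used here.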

Additional observations from a re-analysis of the deposited data

How the results depend on the processing

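Under 15 alternatives, limma called 0 circRNAs and 0 hosts at an adjusted p under 0.05, as in the main analysis, where 234 circRNAs and 126 hosts had an unadjusted p under 0.05. Member hosts at an unadjusted p under 0.05 numbered 3, with 5 without a trend, 1 among hosts above 0 in all 6 libraries, 2 at 0.2 or 5 times the pseudocount and 1 to 4 when any 1 library was left out, 1 being without CUS replicate 3. The same count was 2 with rows of several identifiers assigned, the Fbxw7 value having passed out of it. Member circRNAs numbered 7, with 0 among those above 0 in all 6 libraries, where only 20 were tested, and 5 to 8 when 1 library was left out. Replicate numbers shared between groups gave no sign of pairing. Deviations from group means correlated at -0.070 to -0.034 between same-numbered libraries and at -0.0051 to 0.0455 between the others. The replicate block gave 3 member hosts and 7 member circRNAs at an unadjusted p under 0.05. Of 635 values of named hosts and circRNAs under alternatives, 616 kept their direction and side of the threshold. Leaving out the trend, changing the filter or adding the replicate block could not change a difference. With 0 values past the threshold under any alternative, its side could not change either, so the 616 are no measure of stability. The 19 values that changed sign belonged to 13 hosts and circRNAs, and the cause was not tested. For Cul5 the log2 difference, -0.45, was 0.090 at 0.2 times the pseudocount and -1.93 to 0.48 when 1 library was left out. Leaving out 1 library gave -0.11 to 0.45 for Rnf169, -0.024 to 1.01 for Trim2, -0.31 to 1.31 for Usp3, -0.10 to 0.83 for Rnf138, -0.64 to 0.035 for Herc1, -0.44 to 0.055 for Herc2 and -0.86 to 0.39 for Trim24. For single circRNAs it gave -0.14 to 0.44 for mmu_circRNA009560 (Rnf169), -0.61 to 0.95 for mmu_circRNA010685 (Usp3), -0.16 to 0.74 for mmu_circRNA004997 (Rnf138), -0.86 to 0.22 for mmu_circRNA008723 (Trim24) and -0.52 to 0.054 for mmu_circRNA009309 (Herc2). The median log2 difference of member hosts, 0.14, was -0.019 among hosts above 0 in all 6 libraries. Hosts and circRNAs listed at 0 in any library had no value under that filter. The number of reads behind a level is unknown, which limits what a 0 can show.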

Other observations

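The table holds 15 circRNAs that list several host identifiers that include a gene of the symbol rule. They enter the sums above only where such rows were said to be assigned to a host. One of Fbxl4, an F-box gene, mmu_circRNA007127, was at 0, 625 and 548 in the Control libraries versus 572, 2098 and 299 under CUS, above 0 in 5 libraries. mmu_circRNA001753 of Ube2g1, an E2 gene, was at 806, 837 and 0 in the Control libraries versus 649, 0 and 1389 under CUS. A second Ube2g1 circRNA, mmu_circRNA001754, was at 616, 562 and 0 in the Control libraries versus 666, 0 and 0 under CUS. The groups overlapped in each.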
